A study of Mus musculus with 12 samples.

Results

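The mitosis and G2/M genes are 42 genes of the last part of the cell cycle, matched by symbol to 42 of the 50684 genes of the count table of mouse ear skin. The list was given as symbols, and no value of these libraries enters the rule. It was, however, chosen with earlier results of these data known. Exons of 10 of the 42 overlap those of another gene, and the reads of such a pair may not be told apart: Cdc25c with Gm3550, Cdca8 with 9930104L06Rik, Nusap1 with Oip5 and Tacc3 with Tmem129, on opposite strands, and 6 named with their values. Each symbol matched 1 gene, and all 42 genes passed the filter on low counts, with between 109 and 21772 reads per library. By role they comprise 9 cyclins, kinases and their partners around Cdk1, 5 mitotic kinases and members of the chromosomal passenger complex, 9 genes of the kinetochore, the centromere and the spindle checkpoint, and 2 partners of the anaphase-promoting complex. The others are 9 spindle proteins and kinesin motors, 4 genes of cytokinesis, and 4 genes of chromosome structure, among them the proliferation marker Mki67.

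A dividing cell copies its DNA in S phase, and in G2 it builds up B-type cyclins, which bind the kinase Cdk1 and drive the cell into mitosis. Kinetochores then attach the chromosomes to the spindle, the spindle checkpoint holds back the anaphase-promoting complex until all are attached, and cytokinesis parts the daughter cells. Transcripts of these genes are low in resting cells and accumulate together in G2. In skin, most divisions take place in the basal layer of the epidermis and in growing hair follicles, and a thickened epidermis with many dividing keratinocytes is a hallmark of psoriasis.

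Total RNA was sequenced from the ears of 12 C57BL/6 mice, females of 8 weeks, in 4 groups of 3. The ear pinna was injected intradermally with PBS, with IL-17A, with IL-36γ or with the cytokines together, at 1 µg of a cytokine in a volume of 5 µl, and the ears were collected after 4 consecutive days of treatment. IL-17A is a T-cell cytokine and IL-36γ an epithelial cytokine of the IL-1 family, and both are raised in psoriasis. Each group of the study held 5 animals, of which 3 were sequenced after a random choice, and the control mice were injected with PBS. The sample is a piece of the whole ear, so epidermis, dermis, cartilage, muscle and infiltrating cells were measured together.

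Library totals lay between 25293468 and 34759293 counts, and 19408 genes were tested. Levels are given as CPM, the count scaled to a common library size with TMM factors, always in the order of replicates 1, 2 and 3. The combination stands for the injection of IL-17A + IL-36γ. Differences are log2 fold changes with their standard error, called at an adjusted p-value under 0.05 in edgeR's quasi-likelihood test over all genes tested. The tissue label was in accord with summed markers of basal keratinocytes of 9679 to 20274 CPM in all libraries. PBS replicate 1 stood apart from the other PBS mice. Its level of the mitosis genes was 1.16 to 2.66 times the mean of PBS replicates 2 and 3, with a median of 1.97. It was the highest PBS mouse for 42 of 42 genes, and the share of all genes for which it was highest was not counted. The same library held 174.5 CPM of summed skeletal muscle markers (5 genes, none at 0 in all libraries), against 1928 and 1616 CPM in the other PBS mice. The part of tissue composition in its level was not tested. Counts of the mitosis genes against PBS are given with and without this library, as are counts of the other cell cycle lists after IL-17A. Other values hold all 12 libraries unless stated. The mouse was singled out by its level of these same genes, so a result without it is not a separate test.

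Promoters are shown first, since many genes of this phase share the same short letters. The cell cycle genes homology region (CHR), with the letters TTTGAA or TTTAAA, is bound by the MuvB complex, and CCAAT is bound by the factor NF-Y. RefSeq promoters of GRCm38.p6, taken from 250 bases before to 50 bases after each start, were matched for 34 of the 42 genes, with 36 windows. A CHR match on either strand was found for 29 of these 34 genes (85.3%), against 27.6% of all 32817 windows of this length. TTTGAA alone, which is part of that count, was found for 73.5% of the genes and 17.9% of all windows. CCAAT on either strand was found for 26 genes (76.5%), against 37.4% of all windows, and at least 2 of them for 55.9%, against 11.7%. Both kinds of letters were present for 24 genes (70.6%) and in 10.7% of all windows. They can share a letter at their ends. The letters TTTGGCGC and TTTCCCGC, forms of the E2F site of S-phase genes, were in none of the 34 genes' windows and in 1.6% of all windows, which says only that these letters are not in these windows. A gene with several windows was counted once, and such matches describe letters, not bound sites.

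The following 5 stretches are the first in a fixed order of genes that hold a CHR match and a CCAAT before the start of the annotated transcript. Each runs 5′ to 3′ in the direction of transcription from 10 bases before its first match. It ends at the RefSeq start or, for Cdk1, at the GENCODE start, which lies farther out. Capitals mark the CHR and CCAAT letters on either strand, so that ATTGG is CCAAT and TTCAAA is TTTGAA read from the other strand.
Mki67, chr7:135716380-135716577, minus strand: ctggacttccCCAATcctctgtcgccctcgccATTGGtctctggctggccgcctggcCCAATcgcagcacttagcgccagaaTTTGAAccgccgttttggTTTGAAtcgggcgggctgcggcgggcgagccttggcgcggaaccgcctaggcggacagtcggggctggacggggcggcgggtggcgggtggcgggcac
Top2a, chr11:99024190-99024426, minus strand: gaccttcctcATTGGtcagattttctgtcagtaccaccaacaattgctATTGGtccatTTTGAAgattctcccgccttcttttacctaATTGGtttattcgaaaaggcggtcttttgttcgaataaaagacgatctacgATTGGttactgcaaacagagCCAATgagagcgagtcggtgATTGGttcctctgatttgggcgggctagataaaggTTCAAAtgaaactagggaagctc
Cdk1, chr10:69352939-69353130, minus strand: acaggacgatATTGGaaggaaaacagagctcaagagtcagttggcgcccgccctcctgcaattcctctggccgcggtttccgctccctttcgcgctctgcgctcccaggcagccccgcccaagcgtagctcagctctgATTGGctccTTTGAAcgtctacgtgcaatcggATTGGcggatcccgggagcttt
Ccnb2, chr9:70421555-70421731, minus strand: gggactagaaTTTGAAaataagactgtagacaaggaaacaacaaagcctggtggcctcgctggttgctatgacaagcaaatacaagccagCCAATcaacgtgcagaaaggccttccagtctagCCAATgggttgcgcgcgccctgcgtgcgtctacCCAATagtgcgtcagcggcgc
Plk1, chr7:122159336-122159434, plus strand: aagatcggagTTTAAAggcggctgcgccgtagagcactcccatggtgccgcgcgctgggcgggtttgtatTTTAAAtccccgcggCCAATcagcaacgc

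Mki67 and Top2a held 2 CHR matches each in the stretch shown, Top2a with 6 CCAAT letters and Mki67 with 3. In Cdk1 a CCAAT on the other strand lay just before the CHR, while the stretch of Plk1 held only the TTTAAA form, with a TTTGAA after the start. The 5 genes with a window and no CHR match were Bub1, Cks2, Nuf2, Nusap1 and Tacc3. The median difference between the combination and PBS on the log2 scale was 1.82 for the 29 genes with a CHR match and 1.63 for the 5 without.

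Against PBS, nearly all of the mitosis genes were higher after IL-36γ and after the combination, and fewer after IL-17A. After IL-36γ, 41 of 42 rose and none fell, with a median of 1.43 on the log2 scale, against 17.3% of all genes tested that rose, 11.1% that fell and a median of -0.02 over all genes. In the combination mice, 41 of 42 rose and none fell, with a median of 1.80, against 23.7% of all genes that rose, 20.9% that fell and a median of -0.03. After IL-17A alone, 8 of 42 rose and none fell, with a median of 0.65, against 7.44% of all genes that rose, 3.49% that fell and a median of 0.04. These 3 comparisons share the PBS mice. No gene of the 42 was lower at an unadjusted p under 0.05 in any of the 7 comparisons. All IL-36γ mice lay above all PBS mice for 41 of the 42 genes, against 22.4% of all genes, and all combination mice did so for 41, against 27.0%. With a fold change of over 2 asked for as well, which is the threshold of the study, the counts were 38 after IL-36γ (5.11% of all genes), 39 after the combination (7.35%) and 0 after IL-17A (1.07%). In bulk RNA, fewer cells of a type and less RNA per cell cannot be told apart, and the same holds for more. Without PBS replicate 1, the counts were 41 after IL-36γ (21.7% of all genes), 41 after the combination (25.8%) and 41 after IL-17A (15.2%).

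**Figure D1:**
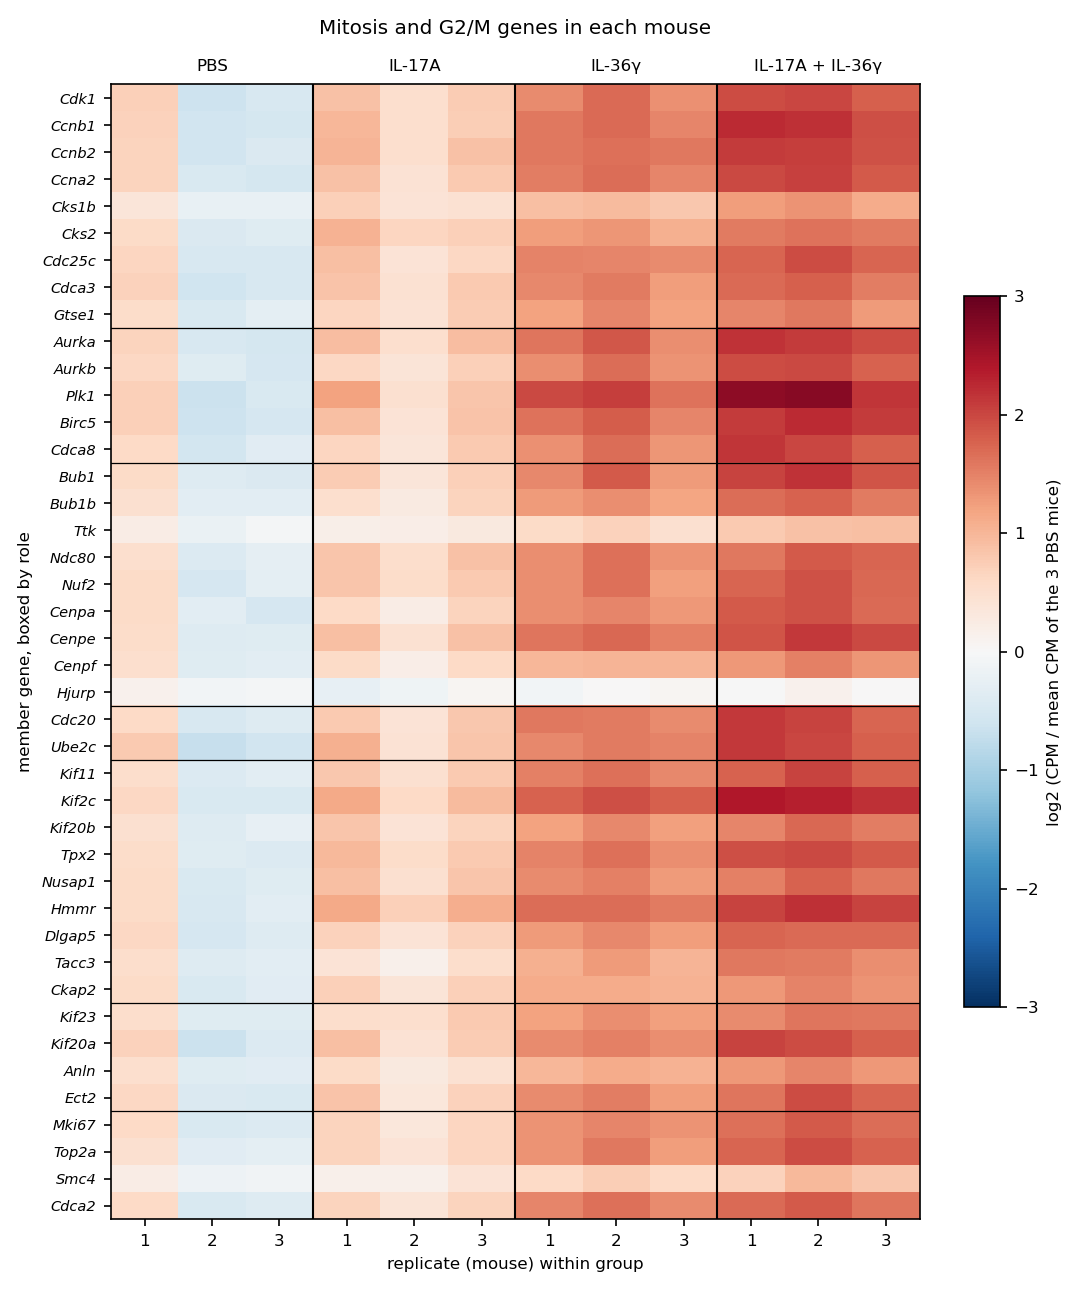
Heat map of the 42 mitosis and G2/M genes (vertical axis, boxed by role) in each of the 12 mice (horizontal axis, by group), with color for the log2 ratio of CPM to the mean of the 3 PBS mice. PBS replicate 1 is redder than the other PBS mice, the mice given IL-36γ alone or with IL-17A are red for all genes but Hjurp, and the IL-17A mice lie between.

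The summed CPM of the 42 genes gives the scale of this pattern in each mouse. It was 2010.4, 1124 and 1160.0 CPM in the PBS mice and 2158, 1777 and 2169 CPM in the IL-17A mice. It reached 3201, 3519 and 3115 CPM after IL-36γ, and 4063, 4482 and 3967 CPM in the combination mice. The IL-36γ mice and the combination mice did not overlap with each other or with any mouse of the other groups, whereas PBS replicate 1 lay between the IL-17A mice.

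Of the cyclins and their partners, 9 of 9 rose after IL-36γ and 9 of 9 after the combination. Cdk1, the kinase that drives entry into mitosis (GRCm38, chromosome 10, 69335146 to 69352938, minus strand), stood at 40.3, 16.1 and 17.7 CPM in the PBS mice, 45.05, 35.2 and 41.8 in the IL-17A mice, 65.6, 80.2 and 63.4 in the IL-36γ mice and 95.9, 99.1 and 84.9 in the combination mice. Both groups with IL-36γ lay above all other mice, and PBS replicate 1 lay within the range of the IL-17A mice. Its log2 fold change against PBS was 1.497 ± 0.27 after IL-36γ (adjusted p = 0.00236) and 1.92 ± 0.28 after the combination (adjusted p = 0.000235).

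Ccnb1 encodes cyclin B1, the main activating partner of Cdk1. Its level was 34.7, 14.4 and 14.9 CPM in the PBS mice, 42.6, 30.4 and 35.6 in the IL-17A mice, 63.3, 69.7 and 59.1 in the IL-36γ mice and 101, 97.2 and 81.9 in the combination mice. The 4 groups followed each other in the order PBS, IL-17A, IL-36γ and combination, and the first pair overlapped. The change was 1.59 ± 0.28 after IL-36γ and 2.13 ± 0.28 after the combination (adjusted p = 0.00176 and 0.000133). Ccnb2, its close relative, stood at 20.3, 8.64 and 9.46 CPM in the PBS mice, 25.9, 18.1 and 23.3 in the IL-17A mice, 38.6, 40.2 and 38.0 in the IL-36γ mice and 54.7, 53.9 and 48.3 in the combination mice. All mice that received IL-36γ again lay above the others, and its changes were 1.60 ± 0.26 and 2.03 ± 0.26. Ccna2, cyclin A2 of S phase and G2, stood at 53.1, 24.4 and 23.2 CPM in the PBS mice, 61.2, 45.5 and 57.4 in the IL-17A mice, 96.8, 108 and 92.0 in the IL-36γ mice and 132, 139.7 and 120.4 in the combination mice, with changes of 1.56 ± 0.26 and 1.96 ± 0.26. Exons of Ccna2 overlap those of Exosc9 on the other strand, and whether reads were counted by strand is not given in the sources used here, so their reads cannot be told apart.

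Cks1b and Cks2 are small subunits that bind Cdk1. Cks1b had the smallest change of the 9 genes in each comparison with PBS and stood at 14.6, 9.85 and 9.85 CPM in the PBS mice, 18.7, 15.3 and 15.6 in the IL-17A mice, 21.3, 22.2 and 20.1 in the IL-36γ mice and 27.4, 29.0 and 24.8 in the combination mice. Here the IL-17A mice lay above all PBS mice, and the log2 fold changes against PBS were 0.53 ± 0.15 with IL-17A, 0.89 ± 0.15 with IL-36γ and 1.24 ± 0.15 with the combination (adjusted p = 0.0417, 0.00123 and 7.15e-05). Cks2 stood at 12.7, 6.34 and 6.73 CPM in the PBS mice, 17.8, 13.5 and 14.1 in the IL-17A mice, 20.6, 21.5 and 17.9 in the IL-36γ mice and 25.5, 26.5 and 25.3 in the combination mice. It too showed no overlap of IL-17A and PBS, with changes of 0.81 ± 0.22, 1.22 ± 0.22 and 1.58 ± 0.22. These were the only cyclins or partners called after IL-17A. Cdc25c, the phosphatase that activates Cdk1, rose by 1.45 after IL-36γ and 1.82 after the combination, and Cdca3 and Gtse1 rose by 1.67 and 1.44 after the combination.

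The mitotic kinases and the chromosomal passenger complex had the highest median of the 7 roles after the combination, 2.07 on the log2 scale (5 of 5 higher). Plk1, a kinase of spindle assembly and cytokinesis (chromosome 7, 122159439 to 122169873, plus strand), showed the largest change of all 42 genes in both groups with IL-36γ. Its level was 8.17, 3.17 and 3.64 CPM in the PBS mice, 11.5, 6.91 and 8.93 in the IL-17A mice, 19.7, 21.0 and 15.5 in the IL-36γ mice and 32.0, 33.2 and 22.2 in the combination mice. All mice that received IL-36γ lay above all others, and the third combination mouse lay closest to the IL-36γ group. The change was 1.90 ± 0.32 after IL-36γ (adjusted p = 0.00138) and 2.54 ± 0.32 after the combination (adjusted p = 0.000109), the latter a 5.81-fold higher level. Exons of Plk1 overlap the predicted gene Gm44985 on the other strand.

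Birc5 encodes survivin, which with Aurkb forms part of the passenger complex that corrects wrong attachments of chromosomes. Birc5 stood at 17.9, 7.05 and 7.76 CPM in the PBS mice, 20.3, 14.6 and 19.6 in the IL-17A mice, 33.5, 38.5 and 30.1 in the IL-36γ mice and 47.0, 51.5 and 46.7 in the combination mice. Aurkb, the kinase of the complex, stood at 19.3, 9.74 and 8.85 CPM in the PBS mice, 19.5, 16.6 and 20.7 in the IL-17A mice, 33.3, 40.4 and 32.4 in the IL-36γ mice and 48.7, 50.002 and 43.3 in the combination mice. For both genes the groups with IL-36γ were apart from the rest, and PBS replicate 1 was near the IL-17A mice. The changes after the combination were 2.15 ± 0.28 for Birc5 and 1.90 ± 0.24 for Aurkb, and after IL-36γ 1.64 ± 0.28 and 1.48 ± 0.23. Cdca8, another subunit, and Aurka, the kinase of the spindle poles, rose by 1.98 and 2.07 after the combination.

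Of the 9 genes of the kinetochore, the centromere and the checkpoint, 8 rose after IL-36γ and 8 after the combination. Bub1, a checkpoint kinase, stood at 14.4, 7.39 and 7.12 CPM in the PBS mice, 16.3, 12.4 and 15.7 in the IL-17A mice, 26.0, 34.4 and 23.5 in the IL-36γ mice and 39.6, 43.5 and 35.6 in the combination mice. Cenpa, the histone H3 variant that marks the centromere, stood at 24.4, 13.2 and 11.5 CPM in the PBS mice, 24.6, 19.0 and 26.1 in the IL-17A mice, 42.8, 44.99 and 40.6 in the IL-36γ mice and 58.8, 61.1 and 53.3 in the combination mice. Cenpe, a kinesin that moves chromosomes to the spindle equator, stood at 42.1, 22.2 and 22.5 CPM in the PBS mice, 54.1, 39.9 and 53.1 in the IL-17A mice, 88.6, 96.0 and 83.1 in the IL-36γ mice and 107, 125 and 115 in the combination mice. In all 3 genes the IL-36γ mice and the combination mice did not overlap with PBS or with each other. Their changes after the combination were 2.04 ± 0.24, 1.82 ± 0.22 and 2.001 ± 0.21, and Cenpe was the only one of them that also rose after IL-17A, by 0.76 ± 0.21 (adjusted p = 0.0427). Ndc80 and Nuf2, partners in the complex that binds microtubules, rose by 1.72 and 1.79 after the combination, Bub1b by 1.67 and Cenpf by 1.38. Ttk, the kinase that starts the checkpoint signal, rose by 0.86 ± 0.10, less than a doubling.

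Hjurp was the exception among the 42 genes. It encodes the chaperone that loads Cenpa onto centromeres (chromosome 1, 88262471 to 88277633, minus strand). It stood at 207, 177 and 180.1 CPM in the PBS mice, 159, 172 and 197 in the IL-17A mice, 179, 188 and 196 in the IL-36γ mice and 186, 205 and 189.8 in the combination mice. All 4 groups overlapped. The 95% interval of its change was -0.29 to 0.10 with IL-17A, -0.20 to 0.19 with IL-36γ and -0.15 to 0.23 with the combination (adjusted p = 0.488, 0.982 and 0.729), so a doubling lies outside all 3 intervals. Per kilobase of exon, Hjurp had the highest level of the 42 genes in PBS skin, 22.6 CPM, close to Mki67 with 22.2 and Smc4 with 22.1. After the combination its 23.2 CPM per kilobase lay below the 73.3 CPM per kilobase of Mki67 and the 39.0 of Smc4. No exon of another annotated gene overlaps its exons, and its promoter window held both a CHR match and a CCAAT.

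**Figure D2:**
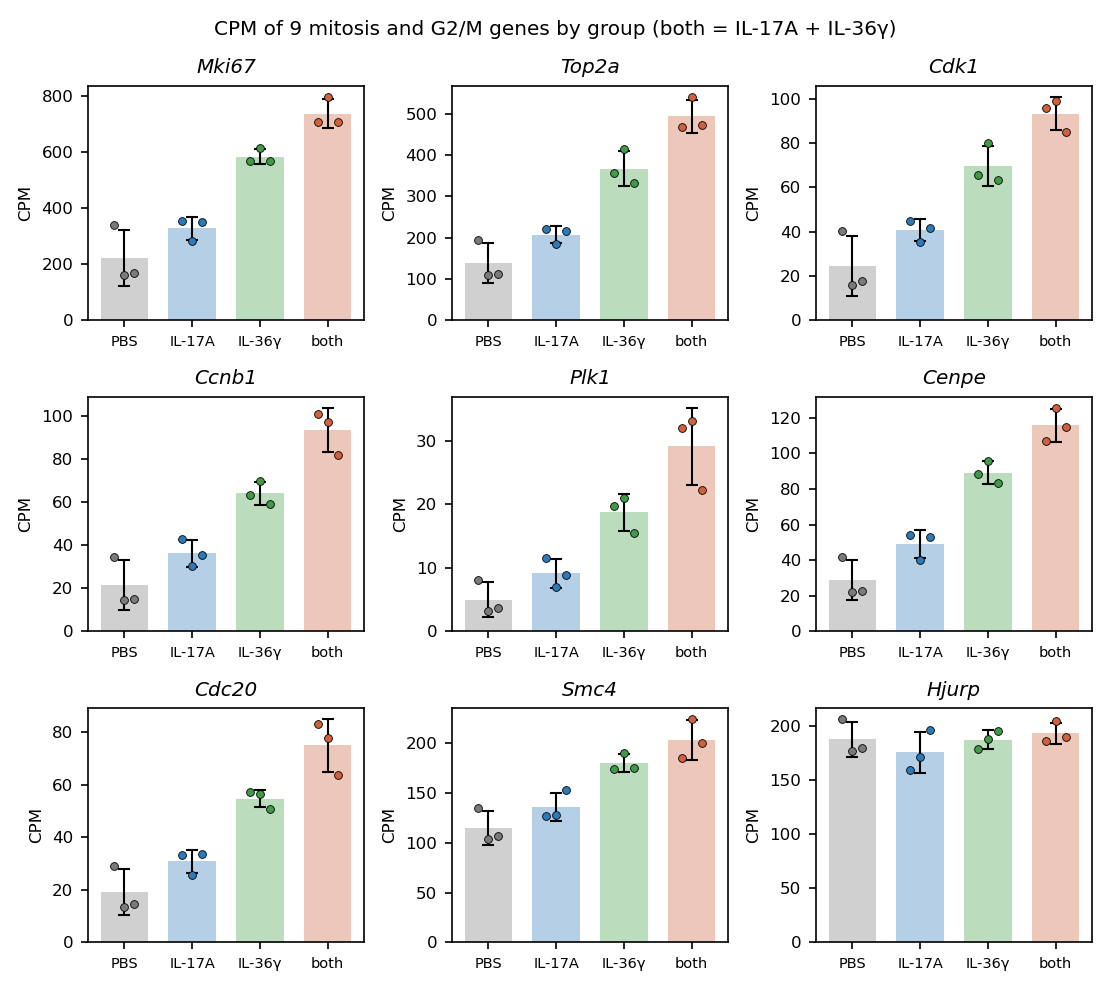
Levels of 9 of the genes in CPM (vertical axis, from 0) for each group (horizontal axis, both standing for IL-17A + IL-36γ). Points are mice, bars are means and error bars the SD of 3 mice. Plk1 climbs from 4.99 ± 2.76 CPM after PBS to 29.1 ± 6.01 CPM after both, Smc4 climbs less, and Hjurp is level.

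The partners of the anaphase-promoting complex both rose. Cdc20, its activator and the target of the checkpoint, stood at 29.2, 13.6 and 14.6 CPM in the PBS mice, 33.2, 25.6 and 33.6 in the IL-17A mice, 57.2, 56.3 and 50.9 in the IL-36γ mice and 83.3, 77.9 and 63.9 in the combination mice. Ube2c, the enzyme that brings ubiquitin to the complex, stood at 13.2, 4.76 and 5.15 CPM in the PBS mice, 16.1, 10.3 and 13.8 in the IL-17A mice, 21.0, 22.7 and 21.5 in the IL-36γ mice and 33.5, 30.9 and 26.7 in the combination mice. Neither gene showed an overlap between the groups with IL-36γ and those without. The changes after the combination were 1.97 ± 0.24 and 1.98 ± 0.31, and after IL-36γ 1.52 ± 0.24 and 1.49 ± 0.31. Exons of Cdc20 overlap Elovl1, and those of Ube2c overlap Tnnc2, a muscle gene, in each case on the other strand.

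All 9 spindle proteins and kinesin motors rose after IL-36γ and after the combination. Kif11, the motor that pushes the spindle poles apart, stood at 56.3, 29.4 and 31.1 CPM in the PBS mice, 68.6, 54.3 and 67.0 in the IL-17A mice, 112, 122 and 106 in the IL-36γ mice and 133, 159 and 135 in the combination mice. Hmmr, a spindle protein, stood at 21.4, 10.4 and 11.5 CPM in the PBS mice, 31.6, 23.6 and 30.6 in the IL-17A mice, 46.2, 45.9 and 42.3 in the IL-36γ mice and 59.1, 65.6 and 58.6 in the combination mice. The IL-17A mice lay above all PBS mice for Hmmr, and for Kif11 the second IL-17A mouse was below PBS replicate 1. Hmmr was the gene with the largest change after IL-17A, 0.98 ± 0.22 (adjusted p = 0.0239), and it changed by 1.63 ± 0.22 after IL-36γ and 2.08 ± 0.22 after the combination. Kif11 changed by 0.70 ± 0.20, 1.54 ± 0.21 and 1.87 ± 0.21 in the same order. Kif2c, which takes microtubules apart at kinetochores, was second to Plk1 after the combination with 2.31 ± 0.25. Tpx2, Nusap1, Dlgap5, Tacc3, Kif20b and Ckap2 rose by 1.39 to 1.92 after the combination.

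The 4 genes of cytokinesis rose as well. Kif20a, a motor of the midzone between the parting chromosomes, stood at 33.4, 13.2 and 15.5 CPM in the PBS mice, 38.5, 28.0 and 35.3 in the IL-17A mice, 55.2, 58.6 and 54.2 in the IL-36γ mice and 83.9, 80.3 and 72.1 in the combination mice. Anln, the scaffold anillin of the contractile ring, stood at 104, 56.5 and 57.8 CPM in the PBS mice, 109, 89.4 and 100.2 in the IL-17A mice, 144, 157 and 149.97 in the IL-36γ mice and 179, 202 and 180.3 in the combination mice. In both genes the IL-36γ and the combination groups were apart from each other and from PBS. Kif20a changed by 1.93 ± 0.27 and Anln by 1.36 ± 0.19 after the combination, while Kif23 and Ect2, which place and start the ring, changed by 1.53 ± 0.20 and 1.78 ± 0.25. Exons of Kif20a overlap Cdc23 on the other strand.

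Among the genes of chromosome structure, Mki67 (chromosome 7, 135689784 to 135716361, minus strand) and Top2a (chromosome 11, 98992943 to 99024189, minus strand) had the highest levels per kilobase after the combination, 73.3 and 54.8 CPM. Mki67, the antigen used to count dividing cells, stood at 339.5, 163 and 168 CPM in the PBS mice, 354, 282 and 349.7 in the IL-17A mice, 568, 615 and 569 in the IL-36γ mice and 706, 796 and 709 in the combination mice. Top2a, the topoisomerase that untangles sister chromatids, stood at 194, 109.7 and 113 CPM in the PBS mice, 221, 185 and 218 in the IL-17A mice, 356, 414 and 333 in the IL-36γ mice and 468, 540.5 and 473 in the combination mice. The PBS and IL-17A groups overlapped for both, and the other groups did not overlap. After IL-36γ the changes were 1.39 ± 0.23 and 1.41 ± 0.19, and after the combination 1.72 ± 0.23 and 1.83 ± 0.19. Smc4, a condensin subunit that also acts in interphase, stood at 135, 104 and 106 CPM in the PBS mice, 127, 128 and 152 in the IL-17A mice, 174, 190.4 and 175 in the IL-36γ mice and 185, 224 and 200.3 in the combination mice. Its changes of 0.64 ± 0.11 and 0.82 ± 0.11 passed the test and were less than a doubling, and Cdca2 changed by 1.72 ± 0.22 after the combination. An exon of Top2a overlaps the small RNA gene Gm23451 on the same strand.

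**Figure D3:**
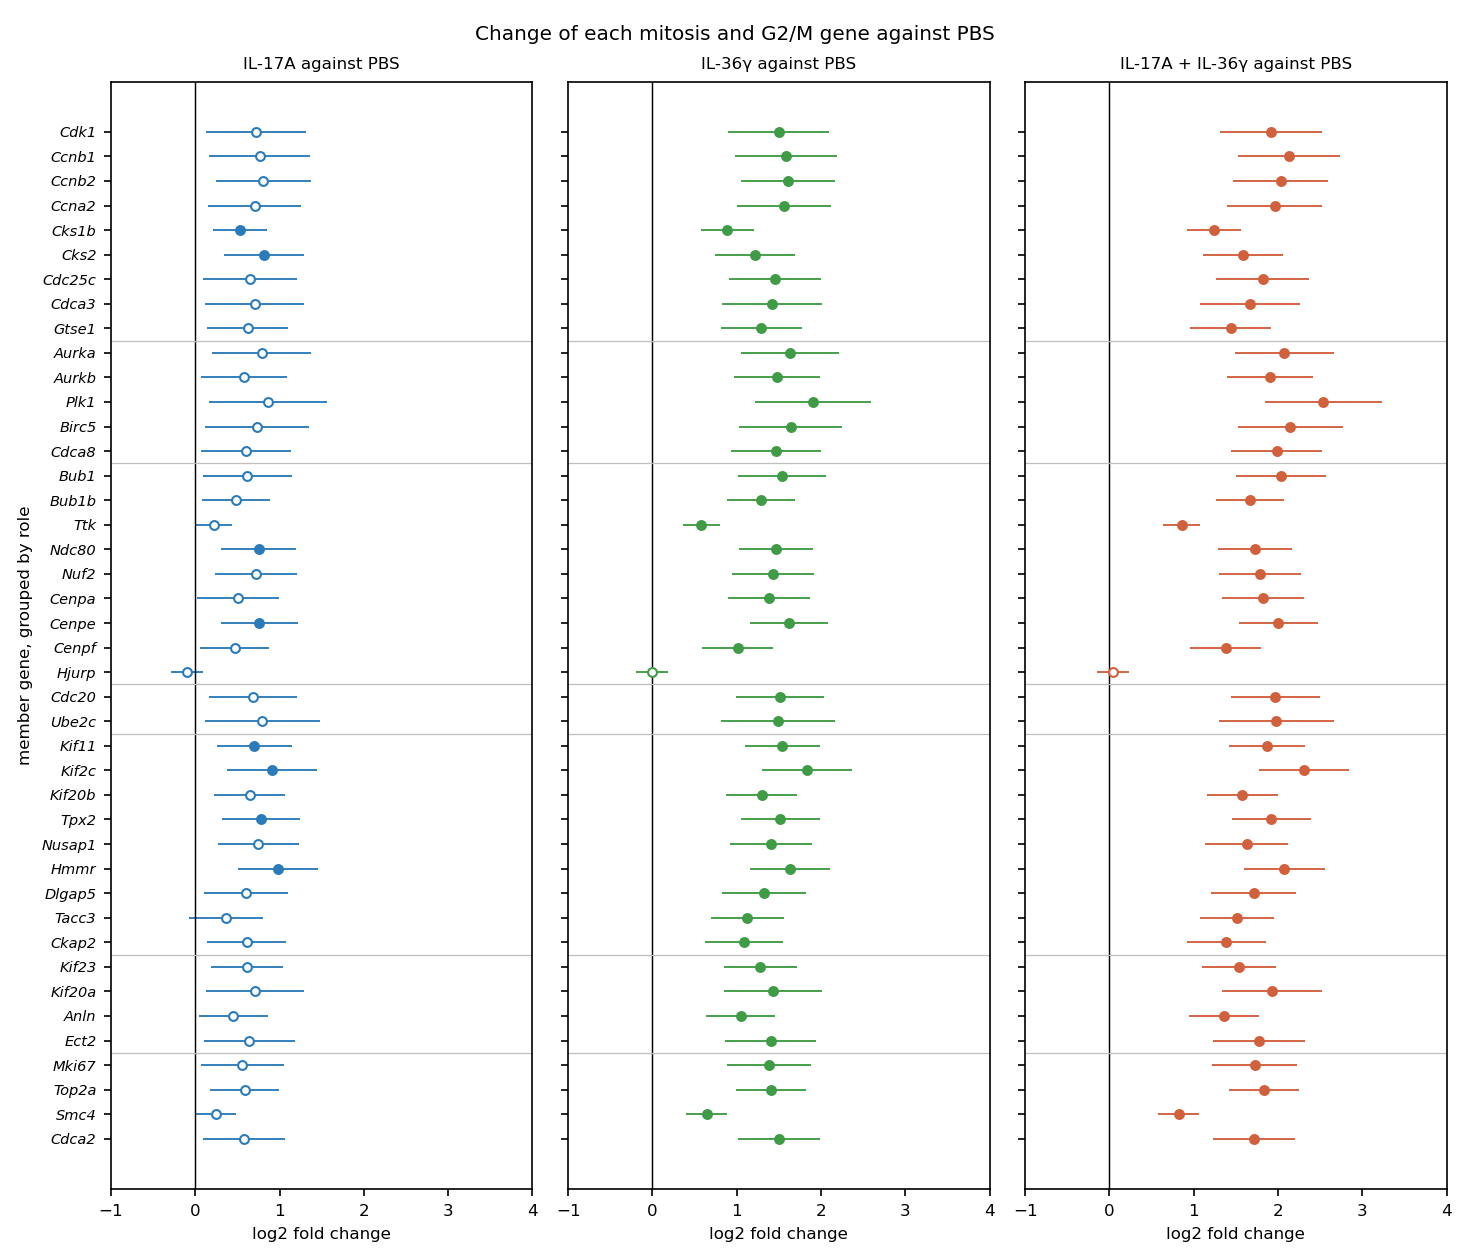
Log2 fold change of each gene against PBS (horizontal axis) with its 95% interval, in 1 panel for each cytokine injection, genes on the vertical axis by role. Filled points passed an adjusted p of 0.05. With IL-17A, 41 of 42 points lie right of 0 and 8 are filled, and in the other panels 41 of 42 are filled.

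The result for IL-17A alone changed with every library left out. The 8 genes that rose were Cks1b, Cks2, Ndc80, Cenpe, Kif11, Kif2c, Tpx2 and Hmmr, and 41 of 42 genes lay above 0 on the log2 scale, against 55.6% of all genes. At an unadjusted p under 0.05, 38 were higher, against 19.0% of all genes. In 4 of 42 genes all IL-17A mice lay above all PBS mice, against 19.6% of all genes, and in 38 of 42 PBS replicate 1 lay above the lowest IL-17A mouse.

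Without PBS replicate 1, 41 of 42 genes rose after IL-17A, with a median of 1.08 on the log2 scale and 28 of them by more than a doubling. The change of Cdk1 was then 1.27 ± 0.13 (adjusted p = 0.000582), that of Mki67 0.99 ± 0.11 (adjusted p = 0.000611) and that of Hmmr 1.38 ± 0.12 (adjusted p = 0.000582). The only controls in this fit were PBS replicates 2 and 3. The mouse left out was set apart by its level of these same genes, so these p-values are no separate evidence for IL-17A. Hjurp alone was not called, at -0.02 ± 0.09. The count was 0 without PBS replicate 2 (1.6% of all genes), PBS replicate 3 (0.0965%) or IL-17A replicate 1 (0.333%). It was 1 to 4 without any of the other 8 libraries, against 2.15% to 6.68% of all genes. The medians after IL-36γ and after the combination were 1.88 and 2.22 without that mouse, against 1.43 and 1.80 with it. PBS replicate 1 still lay below all IL-36γ mice for 41 of the 42 genes.

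The question of whether both cytokines together did more than each alone was put to direct comparisons. Against IL-17A alone, 41 of 42 genes were higher after the combination, with a median of 1.16, where 15.1% of all genes were higher and 17.7% lower. The difference was more than a doubling for 28 of them, against 4.46% of all genes. Plk1 again had the largest difference, 1.68 ± 0.31 (adjusted p = 0.00212), and Hjurp the smallest, 0.14 ± 0.09. All combination mice lay above all IL-17A mice for 41 of 42 genes, against 23.0% of all genes.

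Against IL-36γ alone, none of the 42 genes passed the test after the combination (0% of all genes were higher and 0.0206% lower), although all 42 lay above 0 on the log2 scale, against 50.6% of all genes. The median was 0.38. All combination mice lay above all IL-36γ mice for 36 of 42 genes, against 9.33% of all genes, and 3 genes were higher at an unadjusted p under 0.05, against 5.60%. DESeq2 called 0 as well, against 0.567% of all genes that were higher. The largest difference was again that of Plk1, 0.64 ± 0.30 with a 95% interval of -0.01 to 1.28. For Mki67 the interval was -0.15 to 0.83, for Cdk1 -0.16 to 0.999 and for Ccnb1 -0.04 to 1.12, so that the interval of Ccnb1 holds both no difference and a doubling. Hjurp had the smallest difference, with an interval of -0.15 to 0.24. Without PBS replicate 1, 37 genes were higher at an unadjusted p under 0.05, against 7.68% of all genes, and 0 after adjustment.

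IL-36γ against IL-17A gave 15 of 42 genes higher and none lower, with a median of 0.76, where 4.37% of all genes were higher and 3.61% lower. No difference passed the test with more than a doubling, against 1.25% of all genes. The lowest adjusted p was that of Top2a, with a difference of 0.82 ± 0.19 (adjusted p = 0.023), and the largest difference was that of Plk1, 1.04 ± 0.31 (adjusted p = 0.0586), which was not called. All 4 genes of chromosome structure and 6 of 9 of the kinetochore were among the 15, and none of the 9 cyclins and partners. The medians of these roles were close, at 0.83, 0.72 and 0.78 in the same order. At an unadjusted p under 0.05, 4 of 4, 8 of 9 and 8 of 9 of their genes were higher. All IL-36γ mice lay above all IL-17A mice for 41 of 42 genes, against 15.6% of all genes, and 40 were higher at an unadjusted p under 0.05, against 12.3%. The count was 41 when PBS replicate 1 was left out, against 6.8% of all genes. It was 0 without IL-17A replicate 2 (0.641% of all genes), IL-36γ replicate 1 (2.27%) or IL-36γ replicate 2 (0.828%).

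The interaction is the log2 difference between the combination and IL-36γ, less the log2 difference between IL-17A and PBS. A value below 0 means that the combination lay below the product of the separate fold changes. None of the 42 genes passed, higher or lower, where 0.129% of all genes passed as higher and 0.423% as lower. The median was -0.28, against -0.07 over all genes, and 3 genes lay above 0, against 41.4% of all genes (12 of the 42 when libraries were scaled by size only). Hmmr had the lowest value, -0.53 ± 0.30 with an interval of -1.19 to 0.12, and Hjurp the highest, 0.14 ± 0.13. None was called by DESeq2, and none had an unadjusted p under 0.05 in either direction (8.58% of all genes did as higher). The value depended on single mice. Without PBS replicate 1, 30 of 42 genes were lower, with a median of -0.75, against 5.13% of all genes. The median was -0.06 without PBS replicate 2 (16 genes above 0), -0.08 without PBS replicate 3 (11 above 0) and -0.13 without IL-17A replicate 1 (5 above 0), with none called in these.

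**Figure D4:**
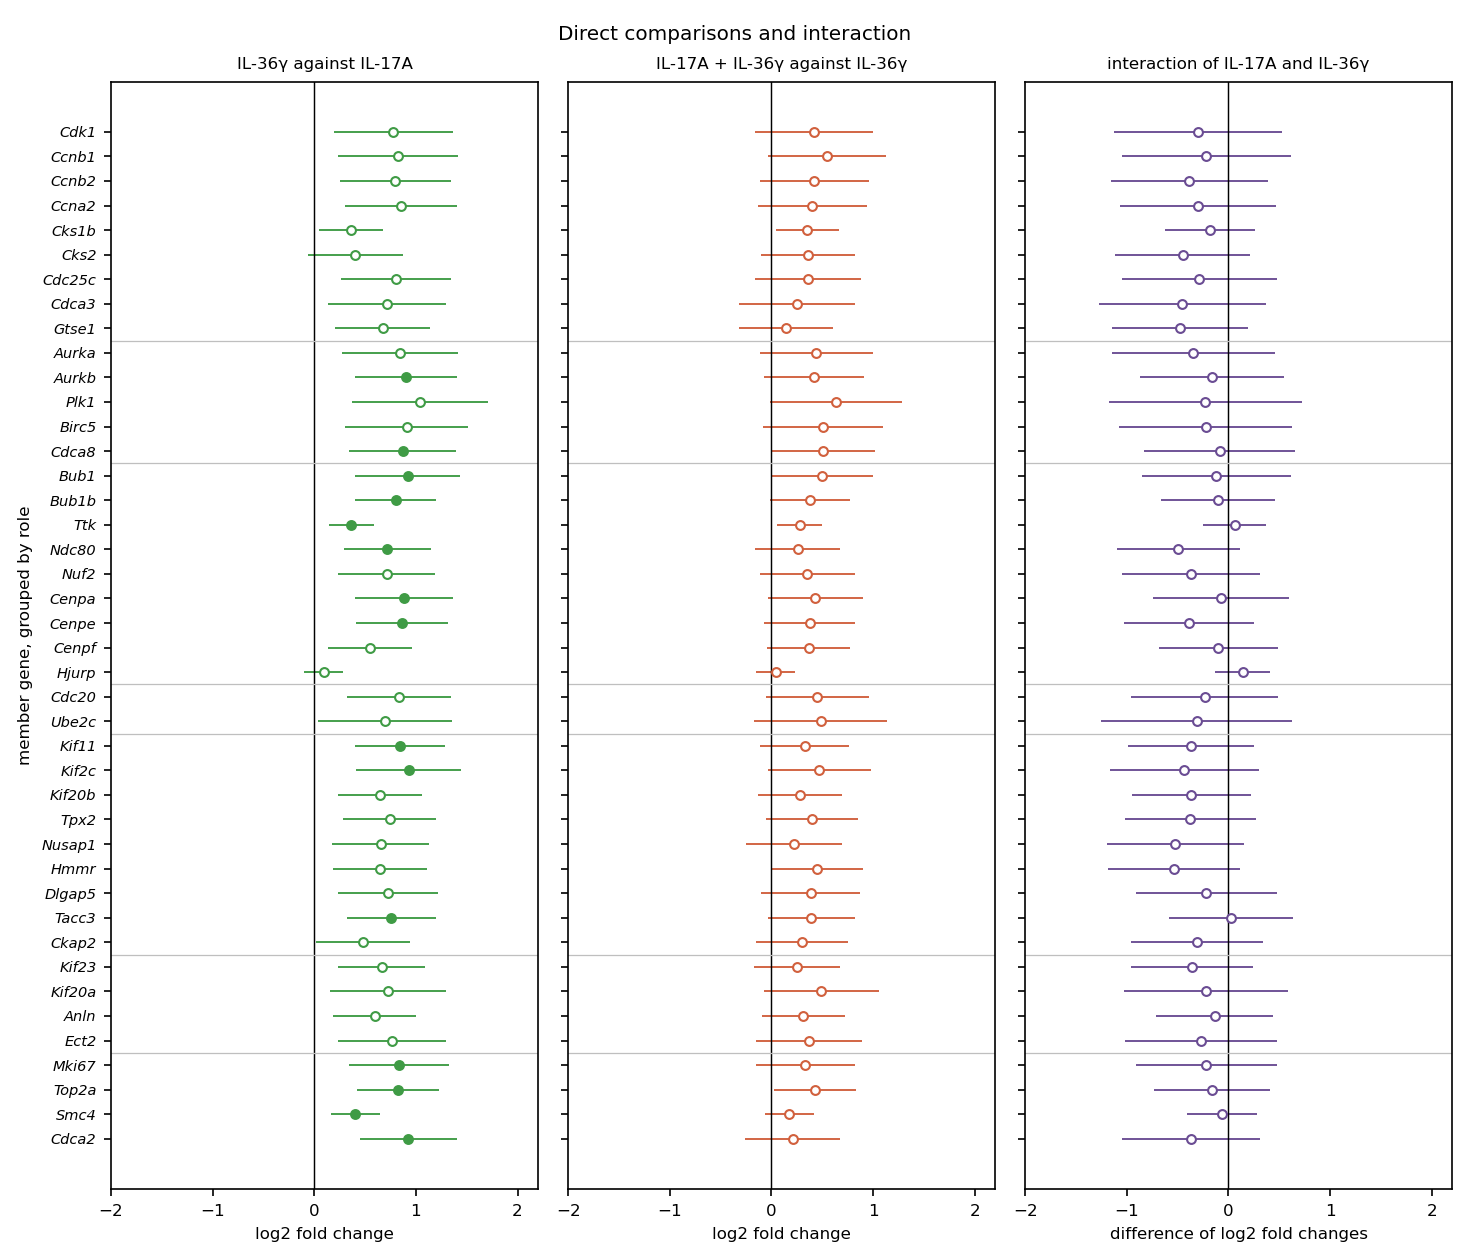
Differences between cytokine groups (log2 fold change, left and middle) and the interaction (difference of log2 fold changes, right) for each gene, with 95% intervals. Filled points passed an adjusted p of 0.05. In the left panel 15 of 42 are filled, in the others none, with 42 points right of 0 in the middle and 3 right of 0 on the right.

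Other genes of the cell cycle were counted from lists that hold none of the 42 genes. Of all genes, 23.7% rose after the combination, 17.3% after IL-36γ and 7.44% after IL-17A. Of 50 other G2/M and mitosis genes, 48 rose after the combination, 48 after IL-36γ and 7 after IL-17A, with medians of 1.57, 1.27 and 0.52. The highest was Sgo1, the guardian of sister chromatid cohesion, with 1.93 ± 0.24 after the combination, and the lowest was the tubulin gene Tubb4b with 0.07 ± 0.11, which was not called. Of 32 genes of DNA replication and S phase, 32 rose after the combination, 31 after IL-36γ and 4 after IL-17A, with smaller medians of 0.96, 0.72 and 0.37. They ranged after the combination from 0.58 for Pola1, a DNA polymerase, to 1.71 for Mcm10, which helps to start replication. Of 62 replication-dependent histone genes, 53 were tested. Of these, 50 rose after the combination, 50 after IL-36γ and 19 after IL-17A, with medians of 1.70, 1.40 and 0.86. Their summed level was 2497 CPM in PBS replicate 1, against 1241 and 1143 CPM in the other PBS mice. Histone genes are near copies of each other, so single ones are uncertain. The highest was H2bc11 with 2.32 ± 0.35, while H2bc21 stood at -0.10, not called. Without PBS replicate 1, the counts after IL-17A were 48 of 50, 24 of 32 and 50 of 53, against 15.2% of all genes.

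Of the 21 transcription factors of G2/M and members of the DREAM and MuvB complexes, 12 rose and 1 fell after the combination. Of all genes, 23.7% rose and 20.9% fell. Foxm1, an activator of G2/M genes, stood at 14.4, 8.15 and 7.46 CPM in the PBS mice, 15.7, 13.4 and 16.0 in the IL-17A mice, 25.9, 27.3 and 24.1 in the IL-36γ mice and 29.9, 32.0 and 26.7 in the combination mice. Mybl2, the B-Myb that joins the MuvB complex, stood at 6.09, 3.77 and 4.18 CPM in the PBS mice, 5.18, 5.55 and 6.15 in the IL-17A mice, 8.48, 13.95 and 9.23 in the IL-36γ mice and 15.3, 16.0 and 13.6 in the combination mice. Both groups with IL-36γ lay above all PBS mice for both genes, and the IL-36γ and combination mice overlapped for both. Foxm1 changed by 1.36 ± 0.20 after IL-36γ and 1.56 ± 0.20 after the combination, and Mybl2 by 1.17 ± 0.21 and 1.67 ± 0.21. After IL-17A both missed the threshold with all 12 libraries, at 0.59 ± 0.20 (adjusted p = 0.0739) and 0.26 ± 0.21 (adjusted p = 0.419). The gene that fell after the combination was Tfdp2, a partner of E2F proteins, by 0.27. Without PBS replicate 1, 14 of the 21 rose and 1 fell after the combination, against 25.8% of all genes that rose. After IL-17A, 8 rose without that mouse (15.2% of all genes) and 1 with it (7.44%).

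The genes of G1 did not move in 1 direction. Of 9 G1 cyclins and kinases, 5 rose and 2 fell after the combination. Of all genes, 23.7% rose and 20.9% fell, the shares to set beside each count of this paragraph with all 12 libraries. Ccne1, cyclin E1 of the entry into S phase, rose by 1.76 ± 0.26. Of the D-type cyclins of early G1, Ccnd1 fell by 0.36 and Ccnd2 by 1.15 on the log2 scale (adjusted p = 0.0209 and 1.28e-05). Ccnd3, also on the list, did not fall. Among the inhibitors of cyclin-dependent kinases and of mitosis, 11 of 12 were tested, and 4 rose and 2 fell. Fbxo5, an inhibitor of the anaphase-promoting complex that is itself made in S phase, rose by 1.11 ± 0.16, and Cdkn1c, the inhibitor p57, fell by 1.71 (adjusted p = 1.01e-05). Cdkn1a, the p53 target p21, had a change of -0.07 ± 0.08 (adjusted p = 0.511). Of 10 genes of quiescence and the p53 response, 1 rose and 1 fell, which is no more than those shares. Without PBS replicate 1, the 3 lists had 5, 5 and 3 genes that rose and 2, 1 and 1 that fell after the combination. Of all genes, 25.8% then rose. After IL-17A, 3, 4 and 1 rose and 1 inhibitor fell without that mouse (15.2% of all genes rose). With all 12 libraries, 0 in each list rose or fell after IL-17A.

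Markers of cell types moved in the same comparisons, where 23.7% of all genes rose and 20.9% fell after the combination. Of 7 markers of basal keratinocytes, the layer where epidermal cells divide, 2 rose and 2 fell after the combination, with a median of -0.09. Krt14 rose by 1.38 ± 0.18 and Krt15 fell by 1.18, and 4 of the 7 lay below 0. The summed level of the list was 9679 to 11599 CPM after PBS and 16330 to 20274 CPM after the combination. Krt14 alone had a mean of 3987 CPM after PBS and 10396.5 CPM after the combination, so it weighs most in the rise of this sum. Of 5 markers of differentiated keratinocytes 3 rose, and their sum was 9664 CPM in PBS replicate 1, 5837 and 5807 CPM in the other PBS mice and 15622 to 17974 CPM after the combination. All 4 stress keratins rose, Krt6b by 7.204 ± 1.57, and their sum was 325 to 526 CPM after PBS and 6261 to 10593 CPM after the combination. Of 6 testable genes of the hair matrix, a site of fast division in growing follicles, none rose and 3 fell, and their sum was 25.8 to 37.2 CPM over all 12 mice.

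Of infiltrating cells, 6 of 6 markers of mature neutrophils rose after the combination, and so did 6 of 6 macrophage markers, against 23.7% of all genes. The neutrophil sums were 14.8 to 23.4 CPM after PBS and 105 to 212 CPM after the combination. The macrophage sums were 482 to 558 and 1032 to 1131 CPM. Other immune lists differed after the combination. Of 6 markers of alpha-beta T cells, 3 rose and 1 fell, and the 1 B-cell marker tested rose. Of gamma-delta T cells 2 of 2 fell. Of Langerhans and dendritic cells 1 of 4 fell, of mast cells 1 of 4, and 0 of these 3 lists rose. Of all genes, 20.9% fell. Granule genes of neutrophil precursors, the marrow cells that still divide, were near absent, with 2 of 7 tested and sums of at most 4.43 CPM in any mouse. Summed skeletal muscle markers were 181, 101 and 714 CPM after the combination and 1253, 590.2 and 981 CPM after IL-36γ. None of the 5 was called against PBS, at a median of -1.77 for the combination. The part of these cell types in the level of the mitosis genes was not tested.

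**Figure D5:**
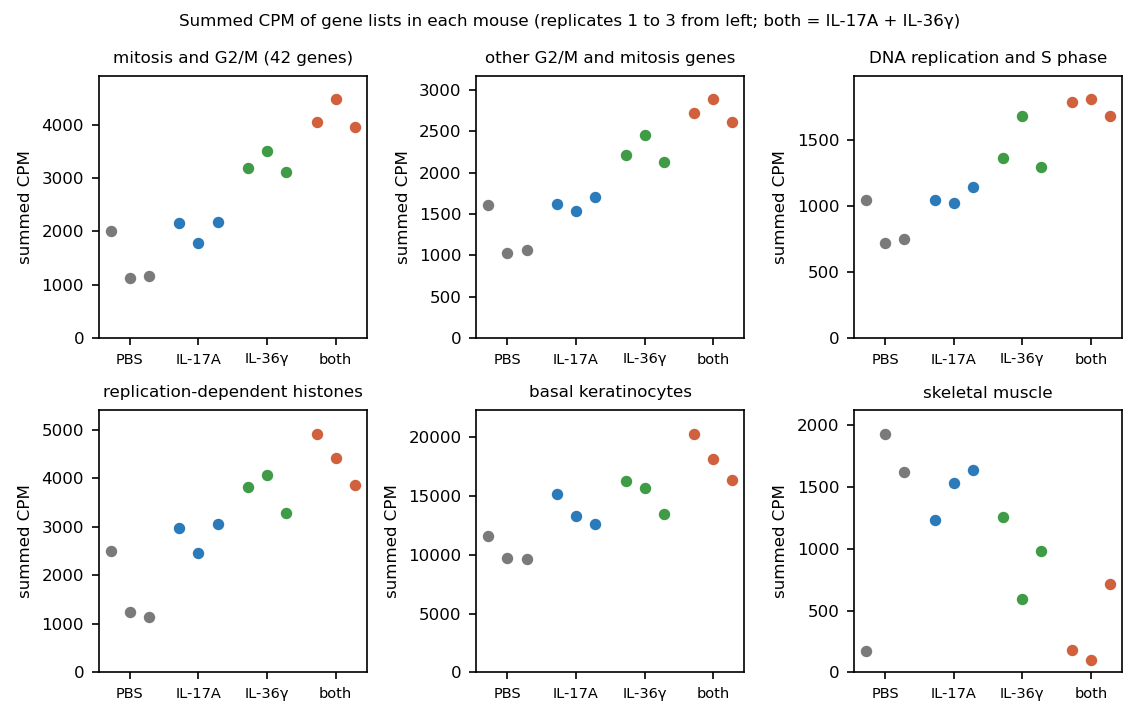
Summed CPM (vertical axis, from 0) of the 42 genes, of 3 other cell cycle lists and of markers of basal keratinocytes and skeletal muscle, in each mouse by group (horizontal axis). The 4 cell cycle lists show the same high PBS replicate 1 and climb from PBS to both cytokines, and muscle is low in PBS replicate 1, at 174.5 CPM, and in 2 of 3 combination mice.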

How the data were processed

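The deposited file holds counts of reads per Ensembl gene without normalization. Per the submitters' notes, the authors aligned the paired reads of 76 cycles to mm10 with STAR 2.5.2b and counted them with featureCounts of Subread 1.5.1, after a stranded total RNA preparation. The strand setting and the treatment of reads with several positions are not given in the sources used here. Further files of the authors with fold changes and p-values, from DESeq2 1.30.0, served only for their pairs of identifier and symbol. Positions and exon lengths come from GENCODE vM21 (GRCm38).

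Libraries were grouped by their titles. In R 4.3.3, edgeR 4.0.16 (with limma 3.58.1) was applied with filterByExpr (minimum count 10), TMM and the quasi-likelihood test in 1 fit of the 12 libraries, with 8 residual degrees of freedom and Benjamini-Hochberg adjustment over 19408 genes for each of 7 comparisons. The common biological coefficient of variation was 14.2%. Intervals are 95% intervals of the fit. The chi-square per gene between libraries of a group was 6.56 to 58.4, so none was taken for a copy of another. In simulated data with 200 genes changed by 1 on the log2 scale among 19135 genes, 61% were called in IL-17A + IL-36γ against PBS with 8 unchanged genes, and 39% in the interaction with 7.

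The members and lists were chosen with earlier results of these data known. Named are members, with values per mouse for 20 fixed ones and the highest and lowest of each comparison, and of other lists Foxm1, Mybl2, Cdkn1a, Ccnd1, Ccne1 and the highest and lowest gene after the combination. Ccnb1 stood in the order for printed promoters, but its letters lie within the GENCODE transcript, and it was passed over. Alternatives were DESeq2 1.42.0 (likelihood ratio test), DESeq2-type size factors, library size only, no filter, a minimum of 10 counts in each library, a fit of the compared groups alone, the fold threshold of the study, the replicate number as a block, and each library left out. The counts of the other cell cycle lists without PBS replicate 1 were added after the data were seen. Krt85 and protein sequences were not analysed here.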

Additional observations from a re-analysis of the deposited data

Results flagged for a closer look

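Of the genes named, 2 macrophage markers differed in their response to IL-17A with and without IL-36γ by the test of the interaction over all genes. Adgre1 had an interaction of -0.99 ± 0.17 on the log2 scale (adjusted p = 0.0429), with changes against PBS of 0.74 with IL-17A, 2.07 with IL-36γ and 1.82 with the combination. For Csf1r the interaction was -0.63 ± 0.11 (adjusted p = 0.0459), with changes of 0.48, 0.72 and 0.56. Of the whole lists, 3 of 6 macrophage markers and 1 of 6 markers of alpha-beta T cells were lower in the interaction, against 0.423% of all genes. The interactions of these markers were not rerun with libraries left out. Groups of 3 mice are too small for a test of single libraries, so none was run on PBS replicate 1.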

How the results depend on the processing

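Against PBS, the counts of 41 genes higher with IL-36γ and 41 with the combination stood under all alternatives run, with 38 and 39 under the fold threshold, and each library left out in turn gave 41 to 41. Without the fold threshold, 8.65% to 21.7% of all genes were higher with IL-36γ in these fits, and 11.6% to 25.8% with the combination. With each library left out, the combination against IL-17A gave 36 to 41, against 10.1% to 17.2% of all genes. The combination against IL-36γ gave 0 to 0, against 0% to 0.116%. After IL-17A against PBS the count of 8 (7.44% of all genes) became 3 with library size only (2.51%) and 15 with no filter (3.06%). It was 0 with only the groups compared (0.0906%) and 0 with the fold threshold (1.07%). With each library left out it ranged from 0 to 41. It was 41 without PBS replicate 1 (15.2%) and 0 to 4 without any of the others (0.0965% to 6.68%). In IL-36γ against IL-17A the count of 15 (4.37% of all genes) became 25 with library size only (5.11%) and 37 with no filter (3.25%). It was 39 with only the groups compared (6.16%) and 0 with the fold threshold (1.25%). With each library left out it ranged from 0 to 41, against 0.641% to 6.8% of all genes. It was 28 without PBS replicate 2 (4.54%), and 4, 0 and 3 without IL-17A replicates 1, 2 and 3 (3.41%, 0.641% and 2.43%). It was 0, 0 and 7 without IL-36γ replicates 1, 2 and 3 (2.27%, 0.828% and 3.64%), and 8 without combination replicate 1 (4.1%). In the interaction, genes lower ranged from 0 to 30 with each library left out (30 without PBS replicate 1, against 5.13% of all genes). Genes higher ranged from 0 to 0, and no member was lower in any comparison between groups. The median of IL-36γ against IL-17A was 0.76 with all libraries and 0.76 without PBS replicate 1, a library outside that comparison. It was 0.66 without IL-17A replicate 2, 0.79 without IL-36γ replicate 1 and 0.68 without IL-36γ replicate 2. The cause of the moves in the counts was not tested. DESeq2 called 10 genes after IL-17A (6.72% of all genes) and 19 in IL-36γ against IL-17A (4.31%). Scaling by library size only moved the median of all genes from 0.04 to -0.13 after IL-17A, from -0.02 to -0.16 after IL-36γ and from -0.03 to -0.17 after the combination. Hjurp, never called, turned from -0.0031 to 0.0724 without PBS replicate 1 and to 0.0099 without IL-36γ replicate 1 in IL-36γ against PBS, where libraries left out gave -0.0456 to 0.0724. In the combination against PBS it turned from 0.0411 to -0.0995 with library size only and to -0.0122 without combination replicate 2, where libraries left out gave -0.0122 to 0.1166. The lowest count of a member in a library was 109.

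With the replicate number as a block, 19 genes were higher after IL-17A against PBS (11% of all genes) and 19 in IL-36γ against IL-17A (4.91%). Against PBS, 41 were higher after IL-36γ (19.2%) and 41 after the combination (24.6%). Deviations of same-numbered libraries from their group means correlated at -0.20 to 0.35, with 9 of 18 pairs under 0.1. For IL-36γ and the combination all 3 pairs were over 0.1, and that comparison had 0 genes called with the block, as without it. In every other pair of groups at least 1 pair was under 0.1, and the numbers were not taken to pair the mice.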
